A study of Komagataella pastoris with 4 samples.

Results

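The protein kinase and phosphatase genes of *Pichia pastoris* (*Komagataella phaffii*), a yeast that can live on methanol, were followed in cells that use ethanol as carbon source with or without an intact MXR1 gene. Rows of the count table were taken where the protein description or the KEGG orthology text named a protein kinase, a MAP kinase, a serine/threonine kinase or phosphatase, a tyrosine phosphatase or a protein phosphatase. The text search took 155 rows, and 6 were removed because the same text named a cyclin, autophagy, the vacuole, meiosis or RNA polymerase. This left 149 of the 5427 rows. The rule reads words and not expression, but it was chosen with earlier results of these data known. All 149 passed the filter of at least 5 counts in at least 2 libraries, and 5425 rows in all were tested. Since the rows were found by text, 6 of the 149 carried another annotation that names a different function, among them an adenylate cyclase and a lipid kinase.

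Dmxr1 is GS115 with the coding region of MXR1, which encodes the zinc finger regulator Mxr1p, disrupted by a zeocin resistance cassette. GS115 is the wild-type reference for MXR1, and the labels give it as a histidine auxotroph. Each strain was cultured in minimal ethanol medium for 14 h, and 2 libraries of each strain were sequenced after depletion of ribosomal RNA. The study describes retarded growth of the mutant on ethanol, so that differences that come with growth rate and those that come with the loss of Mxr1p in another way cannot be told apart. In bulk cultures, a different mixture of cell states and a different amount of a transcript per cell cannot be told apart either.

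Protein kinases transfer phosphate from ATP to serine, threonine or tyrosine residues of other proteins, and protein phosphatases remove it. In yeasts, Snf1, the homologue of mammalian AMP-activated kinase, is needed for growth on carbon sources other than glucose and relieves glucose repression. Protein kinase A (PKA) is switched on by cyclic AMP when its regulatory subunit releases the catalytic subunits, and the TOR kinases couple growth to nitrogen and amino acids. MAP kinase cascades carry signals of osmolarity, pheromone and cell wall stress. The activity of kinases is set largely by phosphorylation of the proteins themselves, which a transcript count does not measure.

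The libraries held 25524047 and 27988540 counts in Dmxr1, against 24140235 and 29402357 in GS115. The 149 rows took 1.78% and 1.71% of the counts in Dmxr1, against 1.80% and 2.03% in GS115. The lowest count of any of these rows in any library was 152. Over the 149 rows, the chi-square between the replicates of a strain was 54.6 per degree of freedom in Dmxr1 and 53.9 in GS115. The MXR1 row (ACIB2EUKG772516) had 206 and 258 CPM in Dmxr1, against 287 and 405 CPM in GS115. The log2 ratio of the strains was -0.58 for MXR1 (SE 0.21, adjusted p = 0.0787). Where these reads lie relative to the cassette cannot be seen from a count table, so the row is no check of the labels. CPM are counts scaled to a common library size, here the TMM-adjusted one, and every log2 fold change is Dmxr1 over GS115.

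Few of the kinase and phosphatase rows differed between the strains by the fold and p thresholds used for the whole transcriptome. With both an adjusted p no larger than 0.05 and a log2 fold change beyond 1 in size, 3 of the 149 rows (2.01%) were lower in Dmxr1, beside 3.26% of all genes tested. None of the 149 was higher by that rule, beside 0.535% of all genes. At an unadjusted p under 0.05, 7 of the 149 (4.70%) lay above 0, beside 13.5% of all genes, and 36 (24.2%) lay below 0, beside 18.5%. DESeq2 also called 0 of the 149 higher. At the adjusted p alone, 23 rows (15.4%) fell in Dmxr1, beside 10.5% of all genes, and 2 rows (1.34%) rose, beside 5.07%. Both Dmxr1 libraries lay below both GS115 libraries in 59 rows (39.6%), beside 31.3% of all genes, and above both in 30 rows (20.1%), beside 31.1%. The median log2 fold change of the 149 rows was -0.09, beside 0.00 over all genes tested. The 96 rows of kinases and their subunits had a median of -0.11 with 15 lower and 0 higher at the adjusted p. The 47 rows of phosphatases and their subunits had a median of -0.09 with 8 lower and 2 higher. Counts and medians are descriptions of these lists, and no test set the lists against other genes. At the adjusted p, the count of each class and pathway below stands beside 10.5% of all genes lower and 5.07% higher.

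**Figure D1:**
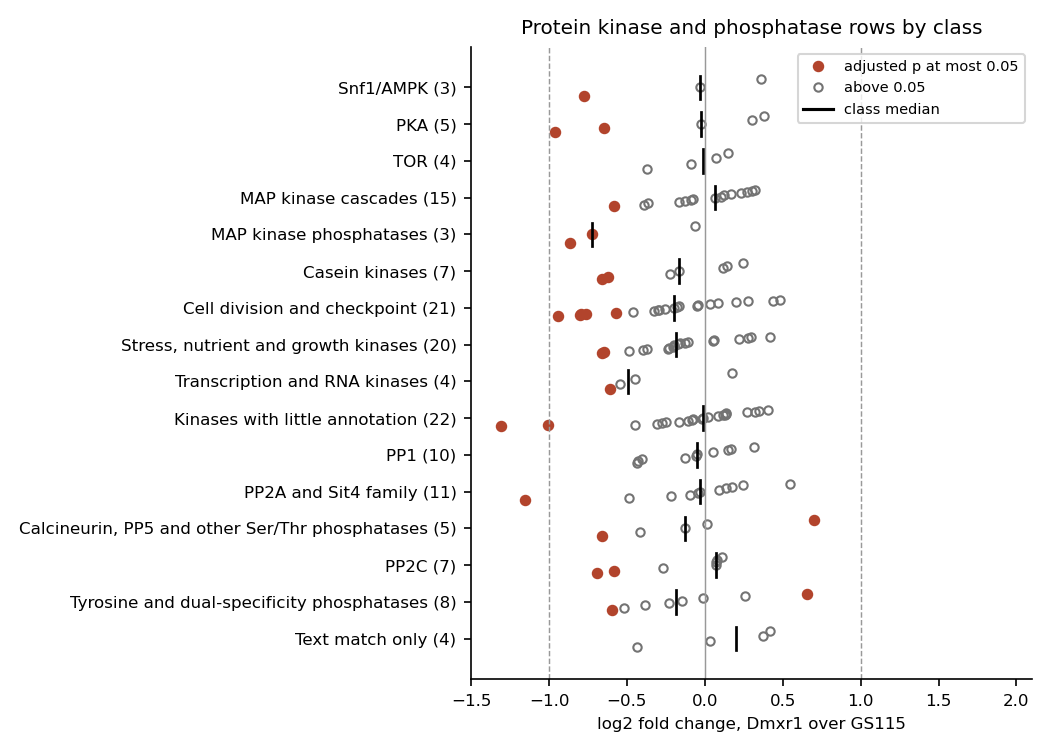
Log2 fold change (Dmxr1 over GS115, horizontal axis) of each of the 149 rows, grouped by class with the number of rows in brackets; filled points have an adjusted p of at most 0.05 and black bars are class medians. The filled points lie on the negative side except for 2, and 3 points pass the dashed line at -1.

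The replicates did not scatter evenly around the rows that fell. Among these 23 rows, GS115 replicate 1 was the higher of the GS115 libraries in 21, and Dmxr1 replicate 1 was the higher of the Dmxr1 libraries in 6. Among all 567 genes that fell at the adjusted p, these shares were 84% in GS115 and 22% in Dmxr1, beside 54.3% and 50.3% over all genes tested. The part of this in the results was not tested beyond leaving out each library, which is given with the rows and at the end.

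The row with the lowest fold change was ACIB2EUKG767998, described only as a protein kinase-like protein, with no KEGG entry. It had 8.04 and 7.98 CPM in Dmxr1, against 20.6 and 19.2 CPM in GS115. The groups were far apart beside the spread within each strain, and the row was 2.48-fold lower in Dmxr1 (log2 fold change -1.31, SE 0.20, adjusted p = 0.000798). The second row was ACIB2EUKG769680, activator 1 of the serine/threonine phosphatase PP2A, a peptidyl-prolyl isomerase family known to help build the active phosphatase. It had 24.4 and 19.1 CPM in Dmxr1, against 48.5 and 48.2 CPM in GS115, which was 2.22-fold lower (log2 fold change -1.15, SE 0.18, adjusted p = 0.00101). The GS115 libraries agreed closely in this row. The third was ACIB2EUKG769611, described as a serine/threonine kinase of the MRCK beta kind, with 36.8 and 53.5 CPM in Dmxr1, against 100 and 81.1 CPM in GS115. It was 2.01-fold lower (log2 fold change -1.01, SE 0.20, adjusted p = 0.00393) and lay just inside the fold threshold. The fold threshold was missed when GS115 replicate 1 was left out (-0.85) and both thresholds when Dmxr1 replicate 1 was (-0.76, adjusted p = 0.0821), and the fold threshold was missed with upper-quartile scaling (-0.94) or library sizes alone (-0.92). Another row with the same description, ACIB2EUKG770271, showed a log2 fold change of 0.13 (adjusted p = 0.728).

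**Figure D2:**
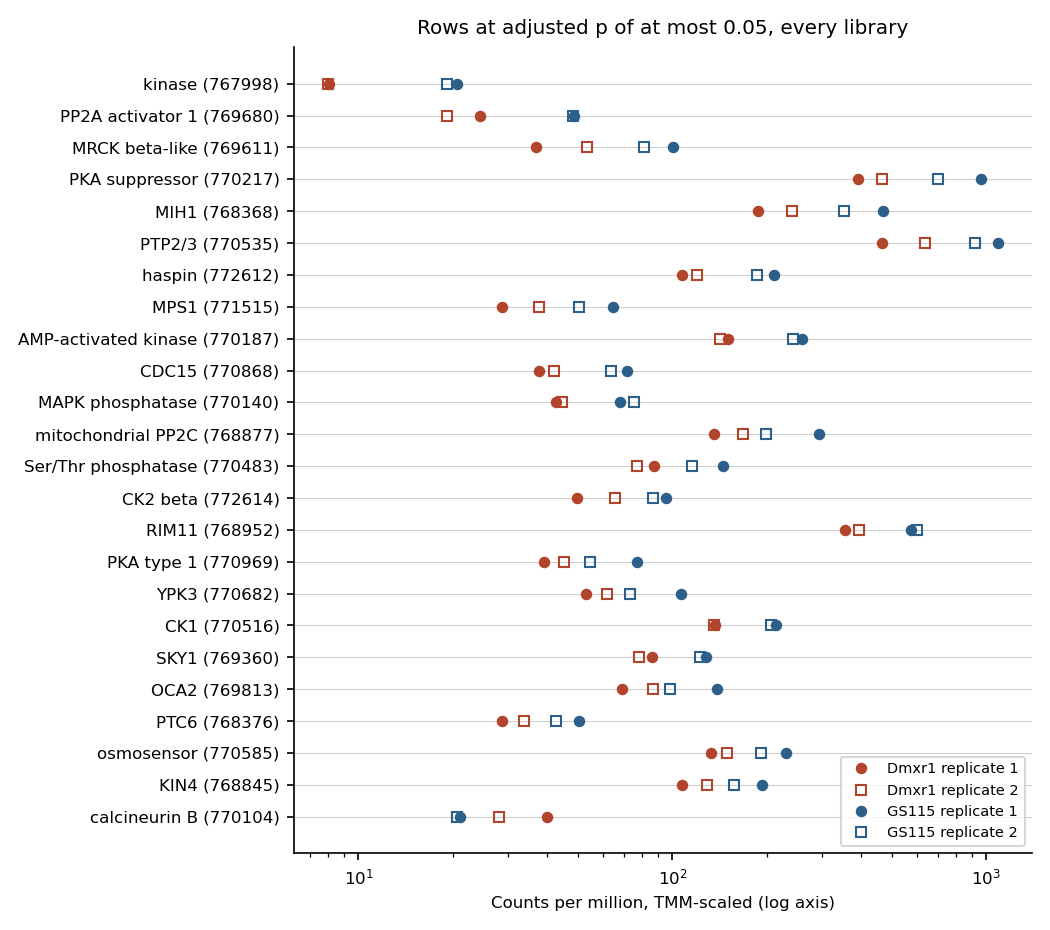
CPM in every library (log axis) of 24 rows with an adjusted p of at most 0.05, ordered by log2 fold change; red marks Dmxr1, blue marks GS115, and the last 6 digits of each identifier are in brackets. In the 23 rows that fell, both red points lie left of both blue points, and in the calcineurin B row they lie right of them.

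The Snf1/AMPK rows did not move together. SNF1 itself (ACIB2EUKG770186), the catalytic subunit, had 236 and 221 CPM in Dmxr1, against 220 and 247 CPM in GS115. These ranges overlap, and the log2 fold change was -0.03 (SE 0.18, adjusted p = 0.919), with a sign that changed under some scalings. The row with the next identifier, ACIB2EUKG770187, is described as an AMP-activated serine/threonine kinase in a complex with Snf4p, although its UniRef name is uncharacterized. It had 151 and 142 CPM in Dmxr1, against 258 and 243 CPM in GS115, and fell 1.71-fold (log2 fold change -0.78, SE 0.18, adjusted p = 0.00965). Its fold change lay between -0.82 and -0.73 whichever library was left out, but its adjusted p passed in 2 of those 4 fits and was at most 0.0781. Whether the adjacent rows share reads cannot be seen from a count table. The gamma subunit row ACIB2EUKG770090, the subunit that senses nucleotides in the mammalian enzyme, had 88.5 and 79.6 CPM in Dmxr1, against 59.1 and 72.0 CPM in GS115. Both Dmxr1 libraries were above both GS115 libraries, but the difference did not pass the test (log2 fold change 0.36, adjusted p = 0.169).

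Other genes of the Snf1 pathway that the word rule did not take were read in the same fit. The row of SAK1 (ACIB2EUKG770053), an upstream kinase that phosphorylates Snf1 in *Saccharomyces cerevisiae*, had 213 and 211 CPM in Dmxr1, against 463 and 364 CPM in GS115. It fell 1.95-fold (log2 fold change -0.96, SE 0.20, adjusted p = 0.00479), just short of the fold threshold. The beta subunit row ACIB2EUKG769093 showed a log2 ratio of -0.39 (adjusted p = 0.114). GAL83 (ACIB2EUKG767933), counted as another beta subunit by its symbol alone and named otherwise by UniRef, had 0.37 (adjusted p = 0.173). CAT8 (ACIB2EUKG769922), a zinc cluster activator that acts downstream of Snf1 in *S. cerevisiae*, had 79.5 and 80.6 CPM in Dmxr1, against 79.9 and 89.7 CPM in GS115. Its ranges overlap, and its log2 fold change was -0.08 (adjusted p = 0.759). Of 10 pathway rows that are not among the 149, 3 fell and 0 rose at the adjusted p. The other 2 that fell only name a pathway protein as a partner. They were a Glc7-interacting protein (ACIB2EUKG768444, log2 fold change -0.73, adjusted p = 0.0268) and a bZIP protein that interacts with Mig1p (ACIB2EUKG768254, -0.80, adjusted p = 0.0315). The bZIP row did not pass without GS115 replicate 1 (-0.41, adjusted p = 0.250) or without Dmxr1 replicate 1 (-0.58, adjusted p = 0.290). The Glc7-interacting row did not pass without those libraries either (adjusted p = 0.109 and 0.320).

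Among the PKA rows, 2 of 5 fell at the adjusted p, beside 10.5% of all genes, and neither passed the fold threshold. ACIB2EUKG770217, a cAMP signalling protein described by its ability to suppress a PKA growth defect when overexpressed, had 389 and 464 CPM in Dmxr1, against 964 and 701 CPM in GS115. It fell 1.95-fold (log2 fold change -0.96, SE 0.22, adjusted p = 0.00829) and lay just outside the fold threshold. The catalytic subunit row ACIB2EUKG770969, named cAMP-dependent protein kinase type 1 by UniRef, had 38.9 and 45.2 CPM in Dmxr1, against 77.2 and 54.7 CPM in GS115. It fell 1.57-fold (log2 fold change -0.65, SE 0.19, adjusted p = 0.0328), but the adjusted p passed in only 1 of the 4 fits without a library, the one without GS115 replicate 2. The other catalytic subunit row, TPK2 (ACIB2EUKG768940), had 122 CPM in each Dmxr1 library, between the 142 and 107 CPM of the GS115 libraries (log2 fold change -0.02, adjusted p = 0.937). The regulatory subunit row ACIB2EUKG771429 had 310 and 239 CPM in Dmxr1, against 225 and 198 CPM in GS115. Its log2 fold change of 0.38 did not pass the test (adjusted p = 0.198), nor did the 0.30 of the adenylate cyclase row ACIB2EUKG772670, which makes cyclic AMP (adjusted p = 0.251).

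Upstream of PKA, the row of GPR1 (ACIB2EUKG770675), a G protein-coupled receptor that senses sugar in *S. cerevisiae*, was lower by both thresholds. It had 53.0 and 63.7 CPM in Dmxr1, against 139 and 106 CPM in GS115, which was 2.1-fold lower (log2 fold change -1.07, SE 0.19, adjusted p = 0.00189). With upper-quartile scaling or library sizes alone, the GPR1 row was no longer lower by both thresholds. The adjusted p passed in each fit without a library, while the fold threshold was missed without GS115 replicate 1 (-0.87 on the log2 scale) and without Dmxr1 replicate 1 (-0.94). The row ACIB2EUKG768627, RACK1 by its KEGG symbol and an inhibitor of the G protein Gpa2p by its UniRef name, rose 1.6-fold. It had 840 and 890 CPM in Dmxr1, against 586 and 495 CPM in GS115 (log2 fold change 0.68, SE 0.20, adjusted p = 0.0333). This row passed only in the fit without GS115 replicate 1, and its adjusted p was 0.0990 to 0.157 without each of the other libraries. SRV2 (ACIB2EUKG769454), an adenylate cyclase-associated protein, had 435 and 439 CPM in Dmxr1, against 934 and 524 CPM in GS115. Its GS115 libraries were far apart, and its log2 fold change of -0.74 did not pass the test (adjusted p = 0.0519). IRA2 (ACIB2EUKG771851), an inhibitor of Ras, showed a log2 fold change of -0.03 (adjusted p = 0.927). Of the 7 rows matched to PKA outside the 149, which are not all upstream of it, 2 fell and 1 rose at the adjusted p. Beside GPR1, the row that fell was a thiamine pyrophosphokinase (ACIB2EUKG771975, -0.57) that shares only a gene symbol with PKA.

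Of the 4 TOR rows among the 149, none passed the adjusted p, and none did at an unadjusted p under 0.05. TOR (ACIB2EUKG770146), the kinase itself, had 278 and 279 CPM in Dmxr1, against 237 and 266 CPM in GS115 (log2 fold change 0.15, adjusted p = 0.618). SCH9 (ACIB2EUKG771050), a kinase that TOR complex 1 phosphorylates in *S. cerevisiae*, had 97.3 and 104 CPM in Dmxr1, against 147 and 113 CPM in GS115 (log2 fold change -0.37, adjusted p = 0.164). TIP41 (ACIB2EUKG771650), a regulator of type 2A phosphatases, and NPR3 (ACIB2EUKG768971), a TOR complex 1 regulator that the protein description calls a kinase, had log2 fold changes of -0.09 and 0.07. Neither passed the test (adjusted p = 0.743 and 0.803), although in TIP41 both Dmxr1 libraries lay below both GS115 libraries.

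Of the rows of the Snf1, PKA and TOR complexes, the largest log2 fold change was that of LST8 (ACIB2EUKG769545), a WD-repeat subunit that binds the TOR kinase in both TOR complexes. It had 94.4 and 141 CPM in Dmxr1, against 413 and 246 CPM in GS115. The replicates were wide apart in each strain, yet the strains did not overlap, and the row was 2.80-fold lower in Dmxr1 (log2 fold change -1.49, SE 0.25, adjusted p = 0.00163). It stayed called in each fit without a library, with log2 fold changes from -1.81 to -1.07. NPR2 (ACIB2EUKG772895), partner of NPR3 in a complex that restrains TOR complex 1, fell 1.99-fold. It had 13.2 and 15.4 CPM in Dmxr1, against 30.6 and 26.3 CPM in GS115 (log2 fold change -0.99, SE 0.19, adjusted p = 0.00343). The other subunits did not pass the adjusted p: RAPTOR (ACIB2EUKG770253) showed a log2 fold change of -0.18, TCO89 (ACIB2EUKG768236) of 0.04, RICTOR (ACIB2EUKG772641) of 0.39, and a pair of rows described as components of a Tor2p complex of -0.50 (ACIB2EUKG770493, adjusted p = 0.0612) and -0.12 (ACIB2EUKG771852). Of all 15 rows of these complexes, 1 was lower by both thresholds, beside 3.26% of all genes. At the adjusted p, 3 fell and 0 rose, beside 10.5% and 5.07% of all genes, and the median log2 fold change was -0.03.

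**Figure D3:**
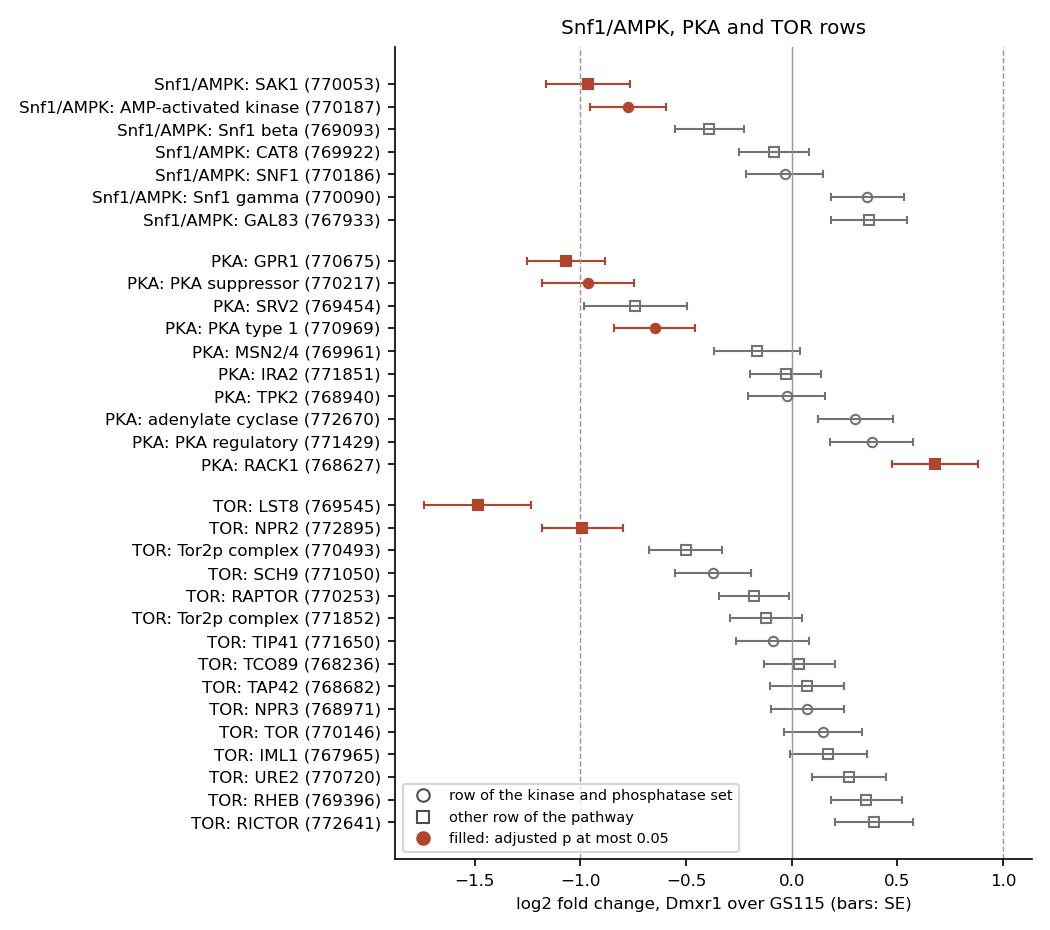
Log2 fold change (Dmxr1 over GS115, horizontal axis; bars are SE) of Snf1/AMPK, PKA and TOR rows; circles belong to the 149 rows, squares are other rows of the pathways, and filled symbols have an adjusted p of at most 0.05. LST8 and GPR1 lie beyond the dashed line at -1, while SNF1, TPK2 and TOR lie near 0.

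Of the 15 rows of MAP kinase cascades, 1 fell and 0 rose at the adjusted p, with log2 fold changes between -0.58 and 0.32. The row that fell, ACIB2EUKG770585, is a histidine kinase osmosensor that acts on the HOG (high osmolarity glycerol) cascade. It had 133 and 149 CPM in Dmxr1, against 230 and 192 CPM in GS115 (log2 fold change -0.58, SE 0.18, adjusted p = 0.0432). A second osmosensor, SLN1 (ACIB2EUKG772715), had 95.8 and 83.0 CPM in Dmxr1, against 117 CPM in each GS115 library (log2 fold change -0.39, adjusted p = 0.123). Further down the cascade, SSK2 (ACIB2EUKG768852), PBS2 (ACIB2EUKG768191) and the p38-type kinase ACIB2EUKG768016 had log2 fold changes of 0.32, -0.17 and -0.08, none of which passed the test. Of 5 HOG rows outside the 149, 1 fell at the adjusted p. This was SHO1 (ACIB2EUKG767930), the membrane osmosensor of the other branch, with 36.9 and 48.0 CPM in Dmxr1, against 92.2 and 70.5 CPM in GS115 (log2 fold change -0.94, SE 0.19, adjusted p = 0.00486). The response regulator SSK1 (ACIB2EUKG771102) had -0.42 (adjusted p = 0.120), and the adaptor STE50 (ACIB2EUKG768446) had -0.22 (adjusted p = 0.560).

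Of 3 phosphatases that act on MAP kinases, 2 fell at the adjusted p, beside 10.5% of all genes. Their difference from the kinases of the cascades was not tested. PTP2/3 (ACIB2EUKG770535), a phosphotyrosine phosphatase, had 465 and 640 CPM in Dmxr1, against 1093 and 918 CPM in GS115. It fell 1.82-fold (log2 fold change -0.86, SE 0.22, adjusted p = 0.0160). ACIB2EUKG770140, a dual-specificity MAP kinase phosphatase, had 42.5 and 44.6 CPM in Dmxr1, against 68.3 and 75.6 CPM in GS115, and fell 1.65-fold (log2 fold change -0.73, SE 0.17, adjusted p = 0.00959). MSG5 (ACIB2EUKG771351), which inactivates MAP kinases of the pheromone and cell wall pathways in *S. cerevisiae*, had overlapping groups and a log2 fold change of -0.06 (adjusted p = 0.826).

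In the cell wall integrity pathway, BCK1 (ACIB2EUKG771782) showed a log2 fold change of 0.27 and MKK1/2 (ACIB2EUKG768843) of -0.37, and neither passed the test. The lipid kinase STT4 (ACIB2EUKG767880), matched to the pathway by its description, had -0.43 (adjusted p = 0.0923). Protein kinase C (ACIB2EUKG770622, 0.12) and the kinase annotated as MAPK7 (ACIB2EUKG771047, -0.13) did not pass either. These last rows were not among those matched to the pathway. Of 11 pathway rows outside the 149, 3 fell and 0 rose at the adjusted p. RLM1 (ACIB2EUKG772965), the transcription factor at the end of the cascade, had 63.0 and 76.6 CPM in Dmxr1, against 122 and 92.7 CPM in GS115 (log2 fold change -0.62, adjusted p = 0.0346). A GTPase activator of Rho1p (ACIB2EUKG770631) showed a log2 fold change of -0.57 (adjusted p = 0.0337). The remaining one, ACIB2EUKG771343, is a sensor of the pathway by its UniRef name but a polymerase subunit by its description (log2 fold change -0.68, adjusted p = 0.0272). Over the 5 pathways, 44 rows outside the 149 were matched. Among these 44, 11 (25%) fell and 1 (2.27%) rose at the adjusted p, beside 10.5% and 5.07% of all genes. In the Snf1, PKA and TOR lists, 8 of the rows matched only as a partner or through a shared symbol. The HOG and cell wall lists were not sorted in this way, and they also hold rows matched through the name of a partner. Of the 11 that fell, LST8, NPR2, SAK1 and GPR1 passed in all 4 fits that left out a library, 2 passed in 3, 3 in 2 and 2 in 1.

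The cell division and checkpoint class held 21 rows, of which 5 fell and 0 rose at the adjusted p, beside 10.5% and 5.07% of all genes. The median log2 fold change of the class was -0.20, beside 0.00 over all genes, and the classes were set after the values were seen. MIH1 (ACIB2EUKG768368), the tyrosine phosphatase that activates the mitotic cyclin-dependent kinase, had 187 and 240 CPM in Dmxr1, against 469 and 353 CPM in GS115. It fell 1.92-fold (log2 fold change -0.94, SE 0.21, adjusted p = 0.00819). SWE1 (ACIB2EUKG771345), the kinase that opposes MIH1, had 56.1 and 53.0 CPM in Dmxr1, against 68.1 and 68.6 CPM in GS115 (log2 fold change -0.33, adjusted p = 0.186). Haspin (ACIB2EUKG772612), a kinase that phosphorylates histone H3, had 107 and 120 CPM in Dmxr1, against 210 and 186 CPM in GS115 (log2 fold change -0.80, SE 0.18, adjusted p = 0.00753). MPS1 (ACIB2EUKG771515), a kinase of spindle pole duplication and of the spindle checkpoint, had 28.7 and 37.5 CPM in Dmxr1, against 64.6 and 50.5 CPM in GS115 (log2 fold change -0.80, SE 0.19, adjusted p = 0.0119).

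The mitotic exit kinase CDC15 (ACIB2EUKG770868) had 37.6 and 42.1 CPM in Dmxr1, against 71.7 and 63.5 CPM in GS115 (log2 fold change -0.76, SE 0.17, adjusted p = 0.00822). KIN4 (ACIB2EUKG768845), an inhibitor of mitotic exit, had 107 and 129 CPM in Dmxr1, against 193 and 157 CPM in GS115 (log2 fold change -0.57, adjusted p = 0.0479). The phosphatase CDC14 (ACIB2EUKG768644) showed a log2 fold change of -0.46 (adjusted p = 0.0822), CDC5 (ACIB2EUKG771752) of -0.04 and DBF2 (ACIB2EUKG771205) of 0.27, which did not pass. The checkpoint kinases BUB1 (ACIB2EUKG770301) and DUN1 (ACIB2EUKG769423) had the highest values of the class, 0.44 (adjusted p = 0.126) and 0.48 (adjusted p = 0.0750).

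Casein kinases are constitutive kinases that act on many substrates. Of 7 rows, 2 fell and 0 rose at the adjusted p, beside 10.5% and 5.07% of all genes. ACIB2EUKG772614, a beta regulatory subunit of casein kinase 2, had 49.8 and 65.5 CPM in Dmxr1, against 95.1 and 87.1 CPM in GS115 (log2 fold change -0.66, SE 0.18, adjusted p = 0.0230). The second beta subunit row, CKB2 (ACIB2EUKG769655), had 0.12, and the alpha subunit rows ACIB2EUKG771426 and CKA2 (ACIB2EUKG768832) had 0.14 and 0.25, none past the test. ACIB2EUKG770516, a casein kinase 1 of the epsilon type, had 137 and 135 CPM in Dmxr1, against 214 and 206 CPM in GS115. The replicates agreed closely in each strain, and the row fell 1.54-fold (log2 fold change -0.62, SE 0.17, adjusted p = 0.0256). Its log2 fold change lay between -0.65 and -0.60 whichever library was left out, but its adjusted p did not pass in most of those fits. With the replicate number added to the edgeR fit, its adjusted p was 0.0701.

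Of 20 rows of stress, nutrient and growth kinases, 2 fell and 0 rose at the adjusted p. RIM11 (ACIB2EUKG768952), of the glycogen synthase kinase 3 family, had 354 and 393 CPM in Dmxr1, against 577 and 602 CPM in GS115 (log2 fold change -0.66, adjusted p = 0.0320). Its relative MCK1 (ACIB2EUKG772165) had -0.49 (adjusted p = 0.0733). YPK3 (ACIB2EUKG770682), an AGC-family kinase, had 52.9 and 61.9 CPM in Dmxr1, against 107 and 73.1 CPM in GS115 (log2 fold change -0.65, adjusted p = 0.0361). The stress kinases YAK1 (ACIB2EUKG769494) and RIM15 (ACIB2EUKG771869), which PKA restrains in *S. cerevisiae*, had -0.40 (adjusted p = 0.119) and -0.20 (adjusted p = 0.460). IRE1 (ACIB2EUKG770814), the sensor of unfolded proteins, had -0.13 (adjusted p = 0.651), and a row described as a kinase of the translation factor eIF2 alpha (ACIB2EUKG771100) had 0.28 (adjusted p = 0.294).

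Of 4 kinases of transcription and RNA, SKY1 (ACIB2EUKG769360), which phosphorylates SR-type RNA-binding proteins, had 86.0 and 78.2 CPM in Dmxr1, against 128 and 123 CPM in GS115, and fell 1.53-fold (log2 fold change -0.61, SE 0.17, adjusted p = 0.0223). CTK1 (ACIB2EUKG770243) and BUR1 (ACIB2EUKG771609), which act on the polymerase tail, had -0.54 (adjusted p = 0.0787) and -0.45 (adjusted p = 0.0940). The 22 kinases with little annotation held the rows ACIB2EUKG767998 and ACIB2EUKG769611 described above, and none of the other rows passed the adjusted p. The 4 rows that matched only by wording had log2 fold changes between -0.43 and 0.42, and none passed.

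In the PP1 and PP2A complexes, 1 of 21 rows passed the adjusted p. Of 10 rows classed under PP1, the phosphatase called Glc7p in *S. cerevisiae*, none passed the adjusted p, and 2 had an unadjusted p under 0.05. Of these 2, ACIB2EUKG770898 is described as a regulatory subunit of Ppz1p and not of Glc7p. The 3 catalytic rows had log2 fold changes of -0.05 (ACIB2EUKG770058), 0.05 (ACIB2EUKG768241) and 0.32 (ACIB2EUKG770312), and the whole class ranged from -0.43 to 0.32. Of 11 rows of PP2A and Sit4, PP2A activator 1 was the only one to pass. The second activator row, ACIB2EUKG772974, had 121 and 93.5 CPM in Dmxr1, against 132 and 117 CPM in GS115 (log2 fold change -0.21, adjusted p = 0.438). The catalytic row ACIB2EUKG768407 had 0.09, the 65 kDa scaffold row ACIB2EUKG772509 had -0.03, and SIT4 (ACIB2EUKG771785) had -0.04. PPG1 (ACIB2EUKG768853), a PP2A-like phosphatase, had 47.6 and 39.3 CPM in Dmxr1, against 25.3 and 34.1 CPM in GS115. Both Dmxr1 libraries were above both GS115 libraries, but the log2 fold change of 0.55 did not pass (adjusted p = 0.0661).

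Calcineurin, the calcium-activated phosphatase, gave the highest fold change of the 149 rows in its regulatory subunit. Calcineurin B (ACIB2EUKG770104) had 39.8 and 27.9 CPM in Dmxr1, against 21.1 and 20.6 CPM in GS115, and rose 1.62-fold (log2 fold change 0.70, SE 0.20, adjusted p = 0.0269). The Dmxr1 libraries were well apart, and the row did not pass without Dmxr1 replicate 1 (0.42, adjusted p = 0.377) or without GS115 replicate 1 (0.71, adjusted p = 0.0542). The catalytic subunit row ACIB2EUKG771564 had 141 and 167 CPM in Dmxr1, against 135 and 170 CPM in GS115 (log2 fold change 0.01, adjusted p = 0.963). ACIB2EUKG770483, a serine/threonine phosphatase with no further annotation, had 87.6 and 77.4 CPM in Dmxr1, against 145 and 115 CPM in GS115 (log2 fold change -0.66, adjusted p = 0.0212).

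PP2C phosphatases are single-subunit enzymes that need metal ions. Of 7 rows, 2 fell and 0 rose at the adjusted p, beside 10.5% and 5.07% of all genes. Both that fell are described as mitochondrial. ACIB2EUKG768877 had 136 and 168 CPM in Dmxr1, against 293 and 199 CPM in GS115 (log2 fold change -0.69, SE 0.21, adjusted p = 0.0375). PTC6 (ACIB2EUKG768376) had 28.7 and 33.6 CPM in Dmxr1, against 50.5 and 42.7 CPM in GS115 (log2 fold change -0.58, SE 0.18, adjusted p = 0.0378). Another mitochondrial row, ACIB2EUKG772829, annotated as pyruvate dehydrogenase phosphatase, had 157 and 230 CPM in Dmxr1, against 178 and 189 CPM in GS115. It overlapped between the strains, with a log2 fold change of 0.08 (adjusted p = 0.828).

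Of 8 tyrosine and dual-specificity phosphatases outside the MAP kinase class, 1 fell and 1 rose at the adjusted p. OCA2 (ACIB2EUKG769813), a tyrosine phosphatase-like protein, had 69.3 and 86.8 CPM in Dmxr1, against 138 and 98.0 CPM in GS115 (log2 fold change -0.60, adjusted p = 0.0496). OCA1 (ACIB2EUKG769766), of the same family, had 26.6 and 29.5 CPM in Dmxr1, against 41.9 and 38.5 CPM in GS115, with an adjusted p just above the threshold (log2 fold change -0.52, adjusted p = 0.0536).

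With 2 libraries per strain, the calls at the adjusted p depended on single libraries. A fit without a library has 1 library in an arm, which is assumed to vary like the others. Of the 23 rows that fell, 2 passed in all 4 fits that left out a library, 7 in 3, 5 in 2 and 9 in 1. The rows that passed in all were ACIB2EUKG767998 and PP2A activator 1. Without Dmxr1 replicate 1, 2 of the 149 rows fell at the adjusted p, beside 3.02% of all genes. Without GS115 replicate 1, 11 fell (5.60% of all genes), without Dmxr1 replicate 2, 12 fell (8.28%), and without GS115 replicate 2, 32 fell (14.0%). The direction of each of these 23 rows and of calcineurin B was the same in each of these fits.

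**Figure D4:**
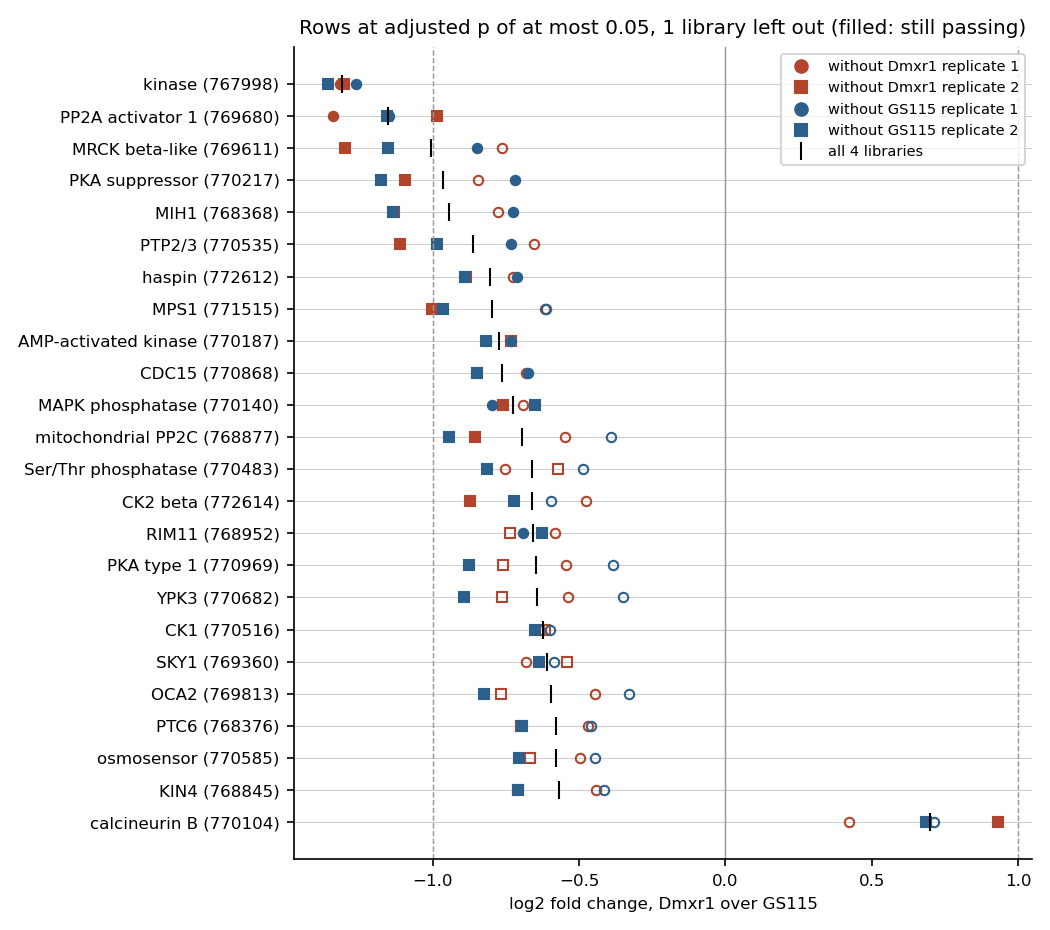
Log2 fold change (Dmxr1 over GS115, horizontal axis) of 24 rows with an adjusted p of at most 0.05, fitted with 1 library left out; filled symbols still had an adjusted p of at most 0.05 and vertical ticks give the fit of all 4 libraries. No point crosses 0, and only the top 2 rows have 4 filled symbols.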

How the data were processed

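RNA was sequenced from 2 libraries of Dmxr1 and 2 of GS115. Per the submitters' processing notes, bcl2fastq 2.19.0.316 split the reads by library, fastp 0.19.6 trimmed them, Bowtie2 placed them on the genome and featureCounts 1.6.4 made the counts. The deposited values are unnormalized whole-number counts for each gene. Overlapping genes and near-identical copies cannot be separated with certainty, because the handling of strand and of multiply aligned reads is not given in the sources used here. The labels name the libraries replicates 1 and 2 and duplicate cultures are described in the study's methods. Deviations of same-numbered libraries had a correlation of -0.14. With 2 libraries per strain this cannot show whether the numbers pair them, and the main test used no pairing.

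A row entered the test if 2 or more libraries held 5 or more counts, which left 5425 rows. The quasi-likelihood test of edgeR 4.0.16 (run in R 4.3.3) was fitted after TMM scaling, and p-values were adjusted by the Benjamini-Hochberg method over these rows. Every adjusted p comes from this test unless another tool is named. Rows called lower or higher had an adjusted p no larger than 0.05 together with a log2 fold change of 1 or more in size, and "fell" or "rose" was also written at the adjusted p alone. The SE of a log2 fold change was taken from the test's F statistic. The fit was tested on simulated data. DESeq2 1.42.0 was an alternative, with other scalings, filters, row sets, a replicate block and leaving out each library.

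The members and lists were chosen with earlier results of these data known. Named rows were the Snf1/AMPK, PKA and TOR members, called members, the 5 lowest and 5 highest fold changes among other members at the adjusted p, up to 2 per MAP kinase, casein kinase, PP1/PP2A/Sit4 and PP2C class, MXR1, and pathway rows that were called or among the 3 smallest p of a pathway. Other rows named were chosen after their values were seen, as were the classes and the 8 pathway matches set aside. Symbols come from the annotation columns of the count table. Gene coordinates, lengths and sequences were not used, so levels are not compared between genes. The values of 1 row that rose at the adjusted p are not reported here, and it stands only in counts and in the plot by class.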

Additional observations from a re-analysis of the deposited data

How the results depend on the processing

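Under each scaling, filter, row set and tool tried, none of the 149 rows was higher in Dmxr1 by both thresholds, and the count of lower rows was 2 or 3. Leaving out 1 library gave 2 to 6 lower rows and 0 higher, a median log2 fold change from -0.11 to -0.06, and 1 row of the Snf1, PKA and TOR complexes. With the adjusted p alone the counts were 23 lower, 2 higher and 3 complex rows. At the adjusted p alone, leaving out 1 library gave 2 to 32 lower rows and 0 to 6 higher. Library sizes alone gave 13 lower and 1 higher (7.21% and 6.06% of all genes), upper-quartile scaling 4 higher (8.26%), and applying the exclusion words to every annotation column (114 rows) 0 higher. These alternatives at the adjusted p alone were added after seeing the data, and the cause of the differences was not tested. With a replicate block, 3 rows were called lower, 0 higher, 9 fell and 0 rose at the adjusted p (5.20% and 1.97% of all genes). With the pairs crossed, chosen after seeing the data, the counts were 3, 0, 25 and 4 (12.5% and 6.69% of all genes at the adjusted p). Of the named log2 fold changes, 9 of 484 refits changed sign, all of rows not called: SNF1 (0.026 with upper-quartile scaling and 0.038 with library sizes alone, and -0.12 to 0.052 with 1 library left out), TPK2 (0.047 and 0.072 with those scalings, and -0.22 to 0.19), NPR3 (-0.080 to 0.21) and STE50 (-0.76 to 0.18). In 9 refits a called row missed a threshold (ACIB2EUKG769611, GPR1 and PP2A activator 1, the last at -0.99 without Dmxr1 replicate 2), and in 13 an uncalled row passed both.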
